A study of Mus musculus with 64 samples.

Results

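The transcripts of 10 regulators of mitochondrial biogenesis and oxidative metabolism were examined in mouse gastrocnemius muscle: the 3 PGC-1 coactivators (Ppargc1a, Ppargc1b, and Pprc1), the 3 estrogen-related receptors (Esrra, Esrrb, and Esrrg), Nrf1, Tfam, Ppara, and Ppard. They were taken by name, as genes of this pathway, with earlier results of these data known. All 10 were among the 15241 genes that passed the filter on low counts, so each was tested. The measurements were RNA sequencing counts per gene from 64 mice, of which 63 were used here.

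Each of 8 groups combined a genotype, a time of day, and a treatment, with 4 males and 4 females in each. HIF1α KO mice carried 2 floxed copies of Hif1a and the Cre recombinase under the human α-skeletal actin promoter, which is active in skeletal muscle fibers, and their fl/fl littermates carried the floxed copies without Cre. Mice were 12 to 18 wk old and were bred onto a C57BL/6JBomTac background. They ran on a treadmill for 60 min (16 m/min at an incline of 5% per the labels) or stayed sedentary on a stationary one, at ZT3 (early rest phase) or ZT15 (early active phase), and muscle was taken 3 h after the run. The group of exercised HIF1α KO mice at ZT3 held 7 mice here, since the library of mouse 44 had 382 counts. The other libraries held 2359780 to 40377963 counts (median 16236352). Markers of skeletal muscle were present in every library, and 9 of them summed to 84695 to 156818 CPM (read counts relative to library size, scaled by the TMM method of edgeR).

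PGC-1 coactivators bind to transcription factors rather than to DNA and recruit the machinery that activates transcription. Their main partners in muscle are the estrogen-related receptors, the PPAR nuclear receptors, and nuclear respiratory factor 1 (Nrf1), which together raise the expression of genes for the respiratory chain, the citric acid cycle, and fatty acid oxidation. Tfam is encoded in the nucleus and is the factor that packages mitochondrial DNA and starts its transcription. In skeletal muscle, Ppargc1a is known as a gene that responds to a single bout of exercise, through calcium and cAMP signaling acting on its promoter. The counts used here are per gene and do not tell apart transcripts from different starts.

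The DNA just before a RefSeq transcription start is shown for the 2 genes that rose most in the exercise comparison and for Esrra, the receptor through which PGC-1α is known to act. RefSeq start sites on GRCm38.p6 gave a window of 250 bases upstream for 9 of the 10 genes, 14 windows in all. Each is written 5′ to 3′ on the gene's strand. Capitals mark matches, on either strand, to GCGCANGCG (nuclear respiratory factor 1), TCAAGGTCA (estrogen-related receptors), TGACGTCA (the cAMP response element, CRE), or TGACG (a shorter core of the CRE). They also mark CACGTG (E-box), ACGTG (a core of the hypoxia response element), and CCGGAAG (GABP). No other form of these motifs was searched, so matches to variants are not marked. For Ppara, 60 bases before its RefSeq start are shown, which lie inside the GENCODE gene, in no exon, from 733 bases after the first base of the gene. The Ppargc1a window lies at chr5:51567726-51567975 on the minus strand, that of Esrra at chr19:6921809-6922058 on the minus strand, and the bases of Ppara at chr15:85735716-85735775 on the plus strand.
Ppargc1a: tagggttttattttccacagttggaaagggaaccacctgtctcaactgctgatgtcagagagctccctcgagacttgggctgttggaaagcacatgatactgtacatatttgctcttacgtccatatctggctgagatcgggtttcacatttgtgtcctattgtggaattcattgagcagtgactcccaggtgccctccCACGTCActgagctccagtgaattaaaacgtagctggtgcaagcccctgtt
Esrra: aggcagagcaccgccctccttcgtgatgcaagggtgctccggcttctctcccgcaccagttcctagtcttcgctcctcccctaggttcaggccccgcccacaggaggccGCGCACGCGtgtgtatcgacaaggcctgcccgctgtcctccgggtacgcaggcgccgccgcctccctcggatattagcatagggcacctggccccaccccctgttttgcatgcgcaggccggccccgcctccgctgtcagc
Ppara: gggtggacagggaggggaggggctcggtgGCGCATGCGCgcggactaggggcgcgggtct
Before Ppargc1a, the shorter CRE core and ACGTG overlapped, 49 to 45 and 51 to 47 bases upstream of the start. Of all 32851 windows of this length, 17.8% held TGACG and 16.6% held ACGTG, so neither match is rare. Among the members, TGACG was also in an Esrrb window (2 matches) and in the Ppara window. The latter match, 222 to 218 bases upstream, lies outside the printed bases. ACGTG was also in the Ppard window, 213 to 209 bases upstream. The Ppara bases held 2 overlapping matches to GCGCANGCG, 31 to 23 and 30 to 22 bases upstream, and the Esrra window held 1 at 141 to 133 bases upstream. That motif was in 5.16% of all windows. The motif of the estrogen-related receptors (0.387% of all windows) and the full CRE (1.55%) were in none of the members' windows, the E-box (6.02%) was in none either, and CCGGAAG (6.91%) was in that of Tfam. Of the Tfam window 236 of 250 bases lie in GENCODE exons of Tfam, so this match is upstream only of the RefSeq start.

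Expressed per kb of exon, to allow genes to be compared, the median level over 63 mice was highest for Ppargc1a (13.5 CPM per kb) and Esrra (12.8). Tfam followed at 7.97, Ppara at 4.11, Esrrg at 3.22, Ppargc1b at 1.74, and Nrf1 at 1.31 CPM per kb. Ppard (0.961), Pprc1 (0.894), and Esrrb (0.428) were the lowest. The coactivator PGC-1α and the receptor ERRα were thus the most abundant transcripts of their families in this muscle. These medians pool sedentary and exercised mice. Ppargc1a (6.59 kb of exon) had a median of 54.5 CPM in sedentary and 125 CPM in exercised mice. Esrra (4.39 kb) had 55.7 and 57.8 CPM, so the first place of Ppargc1a is that of the pooled mice and not of sedentary ones. Median counts per library ran from 36 for Esrrb to 1404 for Ppargc1a, so the values of Esrrb, Pprc1, Ppard, and Ppargc1b rest on the fewest reads. On GRCm38 (GENCODE M21), Ppargc1a (ENSMUSG00000029167.13) spans 51454250 to 51567726 of chromosome 5, Ppara (ENSMUSG00000022383.13) 85734983 to 85802819 of chromosome 15, Esrrg (ENSMUSG00000026610.13) 187608791 to 188214885 of chromosome 1, and Tfam (ENSMUSG00000003923.14) 71225464 to 71238280 of chromosome 10.

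Exercised mice had a higher level of Ppargc1a than sedentary mice, and 2 of the nuclear receptors rose with it. Averaged over genotype and time of day, Ppargc1a was 2.33-fold higher, Ppara 1.29-fold, and Esrrg 1.21-fold higher 3 h after the run. These were 3 of 10 genes past the threshold (edgeR's quasi-likelihood test, adjusted p under 0.1), all higher, beside 2.84% of all 15241 genes tested. The median log2 fold change was 0.13 over the 10 genes and -0.0037 over all genes.

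Ppargc1a encodes PGC-1α, the best studied of the coactivators. In sedentary fl/fl mice at ZT3 its level ranged from 27.6 to 77.1 CPM with a median of 42.7, and in exercised fl/fl mice at ZT3 from 91.0 to 208 with a median of 146. In HIF1α KO mice at ZT3 it ranged from 31.4 to 64.2 (median 42.2) when sedentary and from 96.1 to 171 (median 127) when exercised. Every exercised mouse was therefore above every sedentary mouse of its genotype at ZT3. At ZT15 the range was 42.2 to 154 (median 63.5) in sedentary and 89.2 to 185 (median 121) in exercised fl/fl mice. In HIF1α KO mice at ZT15 it was 39.3 to 84.5 (median 61.4) and 70.2 to 179 (median 116). The groups overlapped at ZT15, where 1 of 8 exercised fl/fl mice and 7 of 8 exercised HIF1α KO mice exceeded the highest sedentary mouse of their genotype.

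**Figure D1:**
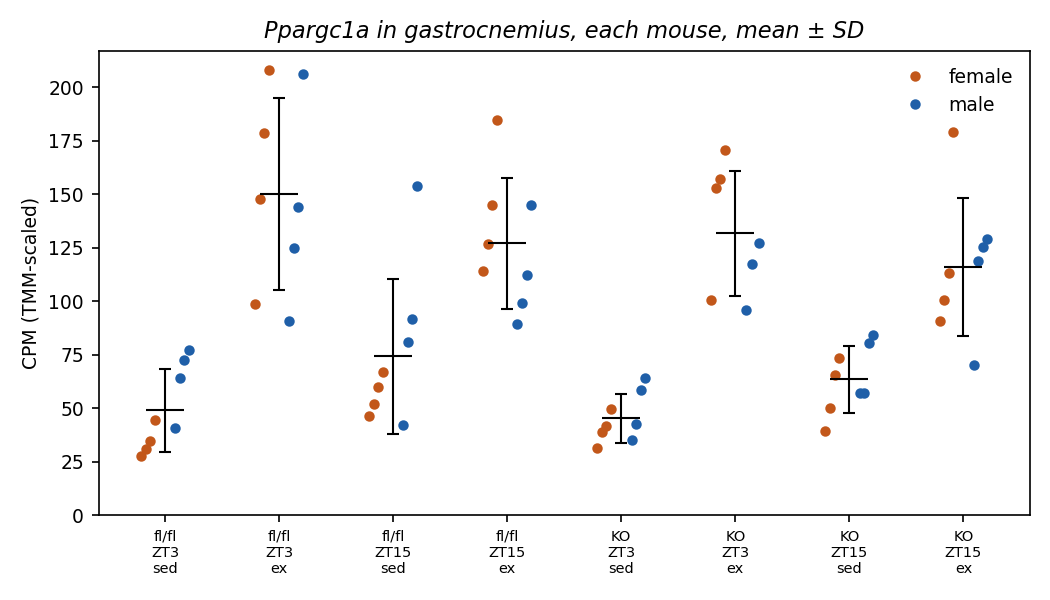
Ppargc1a level (CPM scaled by TMM, y axis) of each mouse in the 8 groups (x axis; sed, sedentary; ex, exercised), females left and males right in each group, with the group mean and SD as a bar. All exercised groups have means from 116 to 150 CPM and all sedentary groups from 45.4 to 74.3, and 1 sedentary fl/fl male at ZT15 stands at 154.

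The log2 fold change of Ppargc1a averaged over the 4 groups was 1.22 (SE 0.11, adjusted p = 5.0e-12 by edgeR), which is a 2.33-fold difference with a 95% interval of 2.00 to 2.71. By its p it ranked 4 of all genes. At ZT3 it was 1.64 (SE 0.22, adjusted p = 4.2e-06) in fl/fl mice, where 0.236% of all genes were called, and 1.57 (SE 0.23, adjusted p = 6.8e-05) in HIF1α KO mice, where 0.131% were called. It was the only one of the 10 genes called in each of these 2 comparisons.

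At ZT15 the values of Ppargc1a were smaller and did not pass the threshold with edgeR. On the log2 scale the difference was 0.80 (SE 0.22, adjusted p = 0.24) in fl/fl mice and 0.88 (SE 0.22, adjusted p = 0.16) in HIF1α KO mice. In these comparisons edgeR called 0% and 0.0591% of all genes, and none of the 10 genes. In HIF1α KO mice at ZT15 DESeq2 called 34 genes, with Ppargc1a among them (adjusted p = 0.051). Of all genes in fl/fl mice at ZT15, 0 passed with edgeR, although 1406 had an unadjusted p under 0.05, and DESeq2 called 16. The fl/fl value depended on the sedentary male with 154 CPM (mouse 8): without it the log2 fold change was 1.02 and the adjusted p 0.041, and that of HIF1α KO mice at ZT15 had an adjusted p of 0.087. The difference in the exercise effect between ZT15 and ZT3 was -0.76 (SE 0.22) with an unadjusted p of 0.00096 and an adjusted p of 0.90. That interaction was called for 0% of genes (648 at an unadjusted p under 0.05, 0 with DESeq2), so a dependence of the Ppargc1a response on time of day did not hold after correction.

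The mean levels of Ppargc1a over the 8 groups fell into 2 tiers. From the top they were 150 ± 44.9 CPM (SD, n = 8) in exercised fl/fl mice at ZT3, 132 ± 29.1 (n = 7) in exercised HIF1α KO mice at ZT3, 127 ± 30.6 (n = 8) in exercised fl/fl mice at ZT15, and 116 ± 32.2 (n = 8) in exercised HIF1α KO mice at ZT15. Sedentary groups followed at 74.3 ± 36.4 (fl/fl, ZT15), 63.5 ± 15.5 (HIF1α KO, ZT15), 49.1 ± 19.5 (fl/fl, ZT3), and 45.4 ± 11.4 (HIF1α KO, ZT3; SD, n = 8 each). Among neighbors in this order, the lowest exercised and the highest sedentary group alone differed by more than the larger of their SDs. The numbers of the mice, which run from 1 to 64, were cut here into 4 blocks of 16, which the labels do not name. Libraries of these blocks differed in composition. The 8 groups were spread unevenly over them, so a difference between groups cannot be fully told apart from one between blocks. Each block held 7 or 8 exercised and 8 sedentary mice. Within the blocks the exercised mean of Ppargc1a exceeded the sedentary mean by 0.93, 1.11, 1.28, and 1.60 on the log2 CPM scale.

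The 2 other coactivators gave no call with exercise. Ppargc1b encodes PGC-1β, known for control of mitochondrial genes at rest, and Pprc1 encodes PRC, a related coactivator linked to growth signals. Their averaged log2 fold changes were -0.08 (95% interval -0.30 to 0.15) and -0.02 (-0.24 to 0.21). Both intervals lie below the change of Ppargc1a. In fl/fl mice at ZT15 Pprc1 stood at -0.58 (SE 0.23, adjusted p = 0.48) and Ppargc1b at -0.51 (SE 0.23, adjusted p = 0.52), and in HIF1α KO mice at ZT15 at 0.36 (SE 0.23) and 0.22 (SE 0.23). The values for the 2 genotypes had opposite signs, and the test of that difference is given with the interactions.

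**Figure D2:**
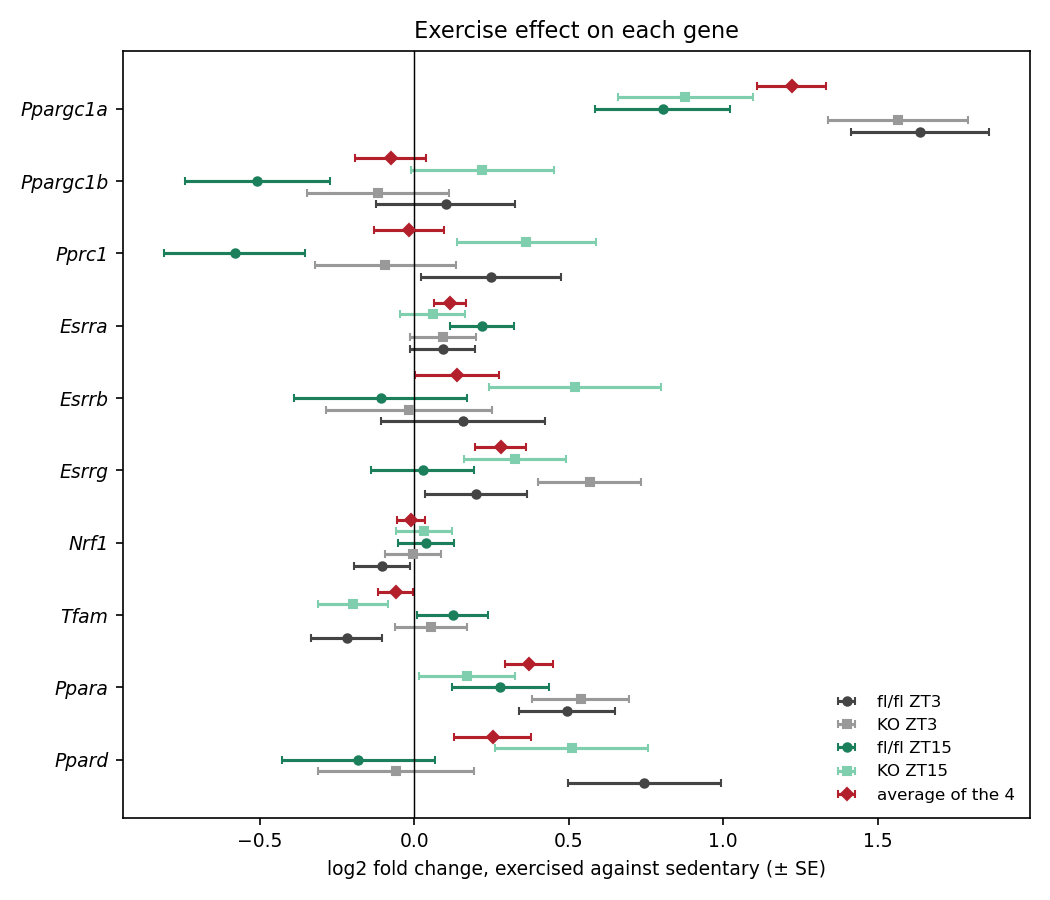
Log2 fold change of exercised against sedentary mice (x axis, with SE as bars) for the 10 genes (y axis) in each genotype and time of day, and averaged over the 4 (red diamonds). Ppargc1a lies to the right of zero in all 4 comparisons (0.80 to 1.64), whereas Ppargc1b, Pprc1, and Ppard lie on both sides.

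Among the receptors, Ppara encodes PPARα, which is activated by fatty acids and controls genes of their oxidation. Its median in sedentary mice was 14.5 CPM (range 9.59 to 19.1, n = 32) and in exercised mice 19.3 CPM (range 11.02 to 34.5, n = 31). The ranges overlapped in all 4 combinations of genotype and time of day, with 5 of 8, 4 of 8, 5 of 7, and 3 of 8 exercised mice above the highest sedentary mouse (fl/fl at ZT3 and ZT15, then HIF1α KO at ZT3 and ZT15). Averaged over the groups, the log2 difference was 0.37 (SE 0.08, adjusted p = 0.0020 by edgeR). Single comparisons gave 0.50, 0.28, 0.54, and 0.17 in the same order, each with an adjusted p of 0.20 or higher. The mean was higher in exercised mice in each of the 4 blocks of mouse numbers, by 0.16 to 0.51 on the log2 scale.

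Esrrg encodes ERRγ, a receptor abundant in oxidative fibers. Its level was 11.5 to 31.6 CPM (median 18.4, n = 32) in sedentary and 12.98 to 34.2 CPM (median 23.2, n = 31) in exercised mice, again with wide overlap. Averaged over the groups, it rose by 0.28 on the log2 scale (SE 0.08, adjusted p = 0.060). It stood at 0.57 (SE 0.17, adjusted p = 0.23) in HIF1α KO mice at ZT3, where 6 of 7 exercised mice were above the highest sedentary one, and at 0.03 (SE 0.17) in fl/fl mice at ZT15. The call of Esrrg was close to the threshold and was lost when no filter on low counts was applied (adjusted p = 0.13).

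Markers of slow and oxidative fibers, which are rich in mitochondria, had higher mean values in exercised mice in 3 of the 4 combinations of genotype and time of day. The summed CPM of 9 such markers (Myh7, Myh2, Tnnt1, and others) was 3367 ± 931 (SD, n = 32; range 1820 to 5040) in sedentary and 4182 ± 1528 (SD, n = 31; range 1785 to 8061) in exercised mice. Of the 9, 0 passed the edgeR test with exercise (4 had an unadjusted p under 0.05, and 0 passed with DESeq2), but all 9 had a positive log2 fold change with a median of 0.29. In fl/fl mice at ZT15, where Esrrg stood at 0.03, the sum was instead 3716 ± 924 CPM in sedentary and 3461 ± 1115 CPM in exercised mice (SD, n = 8 each). In HIF1α KO mice at ZT3 the sum was 2924 ± 995 CPM (SD, n = 8) in sedentary and 4194 ± 2185 CPM (SD, n = 7) in exercised mice. The medians there were close, at 2817 and 2869 CPM. No marker of this list was at 0 in any library. In whole muscle, a larger share of one fiber type cannot be told apart from more RNA of a gene per fiber, and the part of fiber composition in the results for Ppara and Esrrg was not tested.

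**Figure D3:**
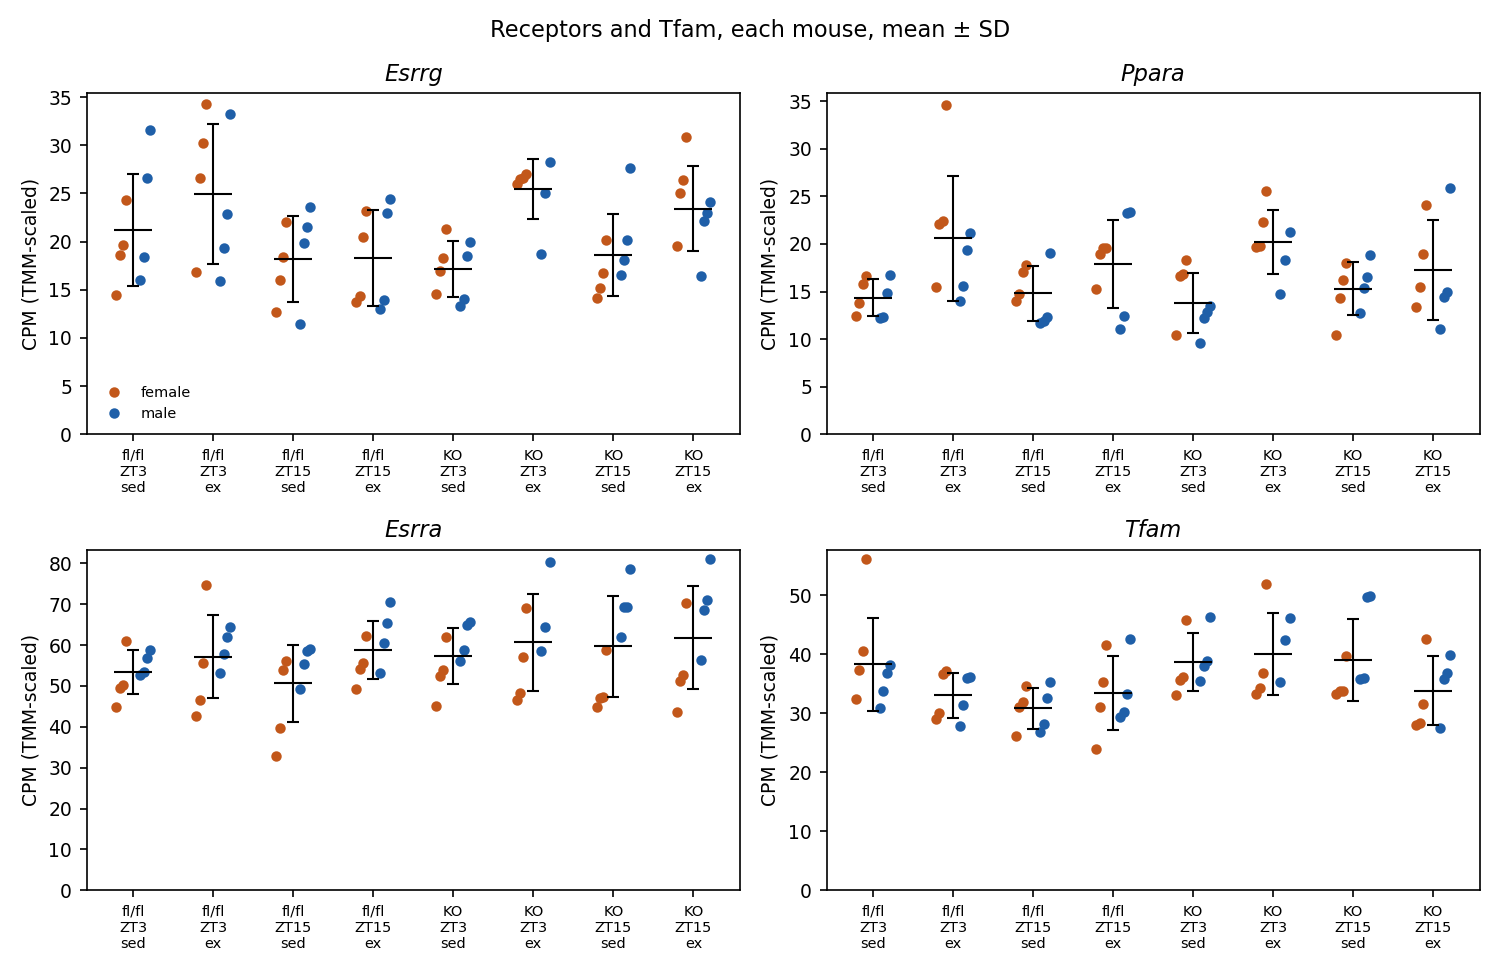
Level (CPM scaled by TMM, y axis) of Esrrg, Ppara, Esrra, and Tfam in each mouse of the 8 groups (x axis), females left and males right, with group means and SDs as bars. Exercised and sedentary mice overlap for each of the 4 genes, and males tend to the upper side for Esrra.

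The 5 remaining genes, Esrra, Esrrb, Nrf1, Tfam, and Ppard, were not called with exercise. Esrra (ERRα), which drives respiratory chain genes with PGC-1α, stood at 0.12 (SE 0.05, adjusted p = 0.37). Ppard (PPARδ), known for control of fatty acid use in oxidative fibers, had 0.25 (SE 0.12, adjusted p = 0.44) on average and 0.74 (SE 0.25, adjusted p = 0.23) in fl/fl mice at ZT3. Esrrb (ERRβ), the scarcest of the receptors, stood at 0.14 (SE 0.14). For Nrf1 and Tfam the averaged values were -0.01 (95% interval -0.10 to 0.08) and -0.06 (-0.17 to 0.05). For Nrf1 the interval of the ratio was 0.934 to 1.06, the narrowest of the 10 genes.

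Counts of called genes among partners and targets of these regulators were set beside the 2.84% of all genes called with exercise. Of 30 partners and upstream regulators, 1 passed the averaged test: Sik1, a kinase induced by cAMP, rose by 0.64 on the log2 scale (SE 0.19, adjusted p = 0.062). None of 26 known targets of the estrogen-related receptors and PGC-1 passed (21 positive, median 0.03), and none of 21 PPAR targets (20 positive, median 0.08). Of 17 mitochondrial transcription and replication factors 0 passed, with a median of -0.01. In these 3 lists 1, 3, and 1 genes had an unadjusted p under 0.05 in edgeR, and DESeq2 called 0 in each. With lists of this size the counts of called genes are near the background. The numbers of positive values have no share over all genes beside them. Over all genes the median log2 fold change was -0.0037.

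The genes whose levels were most like that of Ppargc1a over the 63 libraries were Ell2 (Pearson's r = 0.80), Nr4a3 (0.77), Trp63 (0.77), Kdm4a (0.77), and Pdxk (0.76). The points share their libraries and the treatment, and no test was made. Each of the 5 also rose in the averaged exercise comparison, Nr4a3, a nuclear receptor known to respond to exercise, by the most (log2 fold change 1.46, adjusted p = 0.0030). On the same scale Ell2 stood at 0.91, Trp63 at 1.21, Kdm4a at 0.44, and Pdxk at 0.51.

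HIF1α KO mice differed from fl/fl littermates in 1 of the 10 genes. Tfam was 1.12-fold higher in HIF1α KO mice averaged over treatment and time of day. In that comparison 8.26% of all genes were called (713 higher and 546 lower), so 1 of 10 is close to the background. The median log2 fold change of the 10 genes was -0.03.

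The level of Tfam was 23.9 to 56.2 CPM (median 32.99, n = 32) in fl/fl mice and 27.6 to 52 CPM (median 36.05, n = 31) in HIF1α KO mice, with broad overlap. On the log2 scale the difference was 0.16 (SE 0.06, adjusted p = 0.084 by edgeR). It was 0.34 (SE 0.11, adjusted p = 0.36) in sedentary mice at ZT15 and 0.28 (SE 0.12, adjusted p = 0.21) in exercised mice at ZT3, but 0.01 (SE 0.11) in sedentary mice at ZT3 and 0.02 (SE 0.11) in exercised mice at ZT15. The difference was thus near zero in 2 of the 4 pairs of groups. The call was lost with the blocks of mouse numbers in the model (0.12, adjusted p = 0.12) and with no filter on low counts (adjusted p = 0.15), and it kept its side of the threshold without mouse 22, the fl/fl female with the highest level (0.18, adjusted p = 0.018).

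The coactivators showed no call by genotype. Ppargc1a stood at -0.16 on the log2 scale (SE 0.11, 95% interval -0.37 to 0.06, adjusted p = 0.44), and it averaged 100.1 CPM in fl/fl mice (SD 52.2, n = 32) and 87.8 CPM in HIF1α KO mice (SD 42.4, n = 31). Esrra stood at 0.12 (SE 0.05, adjusted p = 0.17), and Nrf1 at -0.0043 (95% interval -0.09 to 0.08). Within single pairs of groups, 0 of the 10 genes were called among sedentary mice at ZT3 (0.4% of all genes called), sedentary mice at ZT15 (0.0459%), exercised mice at ZT3 (1.43%), and exercised mice at ZT15 (0.4%). DESeq2 called 0 of the 10 in each of these as well, and 0, 2, 2, and 3 of them had an unadjusted p under 0.05. The largest of those values were Ppard in exercised mice at ZT3 (-0.68, SE 0.26, adjusted p = 0.17) and Pprc1 in exercised mice at ZT15 (0.58, SE 0.23, adjusted p = 0.49).

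Several known targets of these regulators were higher in HIF1α KO mice. Of 26 targets of the estrogen-related receptors and PGC-1, 12 were higher in HIF1α KO mice and 0 were lower, beside 8.26% of all genes called in either direction, with a median log2 fold change of 0.15 against -0.0028 over all genes. Atp5b, a subunit of ATP synthase, rose by 0.19 (SE 0.04, adjusted p = 0.0051), Uqcrc1 of complex III by 0.17 (SE 0.05, adjusted p = 0.021), the mitochondrial peroxidase Prdx5 by 0.24 (SE 0.07, adjusted p = 0.023), and the citric acid cycle subunit Idh3b by 0.19 (SE 0.05, adjusted p = 0.031). Of 17 mitochondrial transcription and replication factors 3 were higher: the transcription elongation factor Tefm (0.27), the exonuclease Mgme1 (0.24), and Tfb1m, which methylates mitochondrial rRNA (0.23). Among 21 PPAR targets, Hadhb was higher and Vldlr lower, and of 30 partners 0 were called (1 with an unadjusted p under 0.05, and 0 with DESeq2). The slow and oxidative fiber markers gave no call (0 of 9 with edgeR and with DESeq2, 0 with an unadjusted p under 0.05, median -0.02), and their summed level was 3876 CPM in fl/fl mice (SD 1165, n = 32) and 3656 CPM in HIF1α KO mice (SD 1467, n = 31). Mbp, a marker of Schwann cells, was lower in HIF1α KO mice. The summed level of 4 nerve and Schwann cell markers was 67.9 CPM in fl/fl mice (SD 28.3, n = 32) and 51.8 CPM in HIF1α KO mice (SD 19.8, n = 31). For 5 fibroblast markers it was 1542 (SD 445) and 1316 CPM (SD 239), and for 5 blood markers 137 (SD 78.7) and 145 CPM (SD 46.3). The part of cell composition was not tested.

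The knockout could not be checked by its own gene in these counts. Hif1a was at 28.8 to 49.7 CPM in HIF1α KO and 25.9 to 57.3 CPM in fl/fl mice, a log2 difference of 0.0042 (SE 0.05, adjusted p = 0.98). These counts cover the whole gene, whereas the floxed part is exon 2, and whole muscle also holds cells in which the Cre is not active. Whether either accounts for the value was not tested. In quadriceps, another muscle, the paper reports fewer Hif1a transcripts in HIF1α KO mice than in fl/fl littermates. Genotypes here are those of the labels.

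With edgeR, the interactions of genotype with exercise were called for 0 genes. For Ppargc1a the exercise effect in HIF1α KO minus that in fl/fl mice was 0.0017 averaged over time of day (SE 0.22, 95% interval -0.42 to 0.43 on the log2 scale). This interval is wide beside an effect of 1.22, so a modest difference in response was not detectable with these numbers of mice. In the averaged interaction, 0% of genes were called (306 with an unadjusted p under 0.05, 0 with DESeq2). At ZT3 the same held for 0% of genes (702, and 2 with DESeq2), and at ZT15 for 0% (1388, and 0 with DESeq2).

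Of the other 9 genes, Pprc1 had the smallest p in an interaction of genotype with exercise. At ZT15 its difference was 0.94 (SE 0.32, unadjusted p = 0.0046, adjusted p = 0.55). Its medians there were 7.52 CPM in sedentary and 4.77 in exercised fl/fl mice, against 5.09 and 7.52 in HIF1α KO mice. For Ppargc1b the difference at ZT15 was 0.73 (SE 0.33, unadjusted p = 0.031, adjusted p = 0.55). In the interaction of genotype, time of day, and exercise, Ppard (1.495, SE 0.50, adjusted p = 0.26), Pprc1 (1.29, SE 0.45, adjusted p = 0.27), Tfam (-0.60, SE 0.23, adjusted p = 0.28), and Ppargc1b (0.95, SE 0.46, adjusted p = 0.33) had unadjusted p-values from 0.0039 to 0.044. None was called, nor was any gene (0%, 2196 with an unadjusted p under 0.05, and 1 with DESeq2). With the log2 share of mitochondrial rRNA in the model, a measure of library composition described below, the differences of Ppard, Pprc1, and Tfam were 0.89, 0.83, and -0.23.

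Averaged over genotype and treatment, 0 of the 10 genes were called between ZT15 and ZT3 with edgeR, beside 8.02% of all genes. With the blocks of mouse numbers in the model 4 were called. Ppard (0.28, adjusted p = 0.028) and Pprc1 (0.24, adjusted p = 0.089) were higher at ZT15. Ppargc1b (-0.29, adjusted p = 0.039) and Tfam (-0.13, adjusted p = 0.043) were lower. The 8.02% is that of the model without the blocks, and no share over all genes is given for this count of 4. Without the blocks Ppargc1b was nearest to the threshold, with 6.15 ± 1.93 CPM (SD, n = 32) at ZT15 and 7.67 ± 2.52 CPM (SD, n = 31) at ZT3 (log2 fold change -0.31, SE 0.12, adjusted p = 0.11). DESeq2 also called 0 of the 10, and 5 had an unadjusted p under 0.05. The adjusted p of Ppargc1b was 0.095 without the 3 libraries under 5 M counts and 0.0018 with the rRNA share.

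In exercised fl/fl mice Ppargc1b was lower at ZT15 (1 of 10 genes, beside 1.18% of all genes). Its level was 5.82 to 11.3 CPM (median 8.50) at ZT3 and 3.40 to 7.22 CPM (median 4.67) at ZT15, so the groups overlapped between 5.82 and 7.22. On the log2 scale the difference was -0.85 (SE 0.23, adjusted p = 0.067), and it was -0.55 (adjusted p = 0.27) with the blocks and -0.48 (adjusted p = 0.36) with the rRNA share in the model. In sedentary fl/fl mice (1.88% of all genes called) Ppargc1a stood at 0.60 (SE 0.22, adjusted p = 0.18) and Tfam at -0.32 (SE 0.11, adjusted p = 0.17), and without mouse 8 the value of Ppargc1a was 0.37. With the blocks in the model, Ppard (0.61, adjusted p = 0.044) and Tfam (-0.28, adjusted p = 0.067) were called in sedentary fl/fl mice. The 1.88% is that of the model without the blocks, and no share over all genes is given with them. In sedentary (0.479%) and exercised (0.663%) HIF1α KO mice 0 of the 10 genes were called, with DESeq2 as well, and 1 and 3 had an unadjusted p under 0.05. The interaction of genotype with time of day was called for 0% of genes (648 with an unadjusted p under 0.05, and 0 with DESeq2).

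Of 21 PPAR targets, 8 were lower at ZT15 and 0 higher averaged over genotype and treatment, and 13 were not called, beside 8.02% of all genes called in either direction (median log2 fold change -0.18, against -0.0034 over all genes). Cpt1a, which controls the entry of fatty acids into mitochondria, fell by 0.54 (SE 0.09, adjusted p = 5.8e-06), Acsl1 by 0.33 (SE 0.06, adjusted p = 0.00026), and Mlycd by 0.33 (SE 0.07, adjusted p = 0.00038). The values of Ppara and Ppard in the same comparison were -0.04 (SE 0.08, adjusted p = 0.85) and 0.27 (SE 0.12, adjusted p = 0.25). Of the 30 partners, Hdac4 was higher (0.38), and Fnip1 (-0.37) and Gabpa (-0.14) were lower at ZT15.

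The sexes differed in 2 of the 10 genes, both lower in females, in a comparison that called 25.1% of all genes. Esrra was at 52.5 ± 9.00 CPM (SD, n = 32; range 32.9 to 74.7, median 51.8) in females and 62.4 ± 8.16 CPM (SD, n = 31; range 49.1 to 81, median 60.4) in males. On the log2 scale the difference was -0.25 (SE 0.05, adjusted p = 0.00019). For Nrf1 the medians were 12.99 and 14.6 CPM and the log2 fold change -0.13 (SE 0.05, adjusted p = 0.037). Among the 26 targets of the estrogen-related receptors and PGC-1, 10 were lower and 2 higher in females, whereas all 9 slow and oxidative fiber markers (median 0.88) and all 6 adipocyte markers tested (median 0.80) were higher in females. The part of these cell types in the difference of Esrra was not tested.

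Females had the larger exercise value for Ppargc1a. Sedentary females ranged from 27.6 to 73.5 CPM (median 45.4, n = 16) and exercised females from 90.6 to 208 (median 147, n = 16), without overlap. Sedentary males ranged from 35.4 to 154 CPM (median 64.2, n = 16) and exercised males from 70.2 to 206 (median 119, n = 15), with overlap. On the log2 scale the difference was 1.61 (SE 0.14, 3.06-fold, adjusted p = 1.1e-12) in females, where 1.84% of all genes were called, and 0.82 (SE 0.14, 1.76-fold, adjusted p = 0.00061) in males, where 0.164% were called. The difference between the sexes was 0.80 (SE 0.19, 95% interval 0.42 to 1.17) with an unadjusted p of 0.00011 and an adjusted p of 0.86. It therefore failed the correction over 15241 genes, as did every gene (0% called, 397 with an unadjusted p under 0.05, and 0 with DESeq2), and without mouse 8 it was 0.71. In females Ppara (0.41, adjusted p = 0.039) and Esrrg (0.43, adjusted p = 0.039) were called too, and in males they stood at 0.33 (adjusted p = 0.53) and 0.13 (adjusted p = 1.00). The differences between the sexes for these 2 genes were 0.08 (SE 0.16) and 0.29 (SE 0.16).

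Across mice of the same group and sex, the 10 genes did not vary independently. After the means of group and sex were removed from log2 CPM, 26 of 45 pairs of genes were correlated with an adjusted p under 0.1 (permutation test, 100000 shuffles, 63 mice), 18 positively and 8 negatively. Pairs of other genes were not tested, so this count has no share over all genes beside it. Pearson's r reached 0.74 for Ppargc1b with Ppard and -0.84 for Tfam with Ppard. Their Spearman's rho were 0.69 and -0.82, each with a permutation p of 1e-05, the smallest that the shuffles can give, and an adjusted p of 6.4e-05. Without the 2 mice farthest from the median, r was 0.70 and -0.81, and with the blocks of mouse numbers removed it was 0.58 and -0.69.

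Part of this structure moved with the composition of the libraries. The share of counts from the 2 mitochondrial rRNA genes ranged from 0.712% to 11.6% between mice, with medians of 6.55%, 1.84%, 2.67%, and 5.13% in the 4 blocks of mouse numbers. What sets this share was not tested. Relations with it were worked out for the 10 genes alone, so the count below has no share over all genes beside it. Of the 10 genes, 9 were correlated with the log2 share across mice (20 relations in this family, with 10 of them for fiber markers): Ppard with r = 0.82, Ppargc1b with 0.69, Pprc1 with 0.68, and Esrrb with 0.55 on the positive side, and Tfam with -0.77, Esrra with -0.49, and Nrf1 with -0.40 on the negative side. Their Spearman's rho were 0.82, 0.63, 0.71, 0.54, -0.72, -0.44, and -0.41. The permutation p was 1e-05 for Ppard, Ppargc1b, Pprc1, Esrrb, and Tfam, 4e-05 for Esrra, and 0.0011 for Nrf1 (adjusted p from 3.3e-05 to 0.0017). Without the 2 mice farthest from the median, these r were between 0.52 and 0.82 for the 4 positive and between -0.73 and -0.36 for the 3 negative genes. For Ppard the r within the 4 blocks was 0.64, 0.73, 0.70, and 0.61, and for Tfam -0.41, -0.59, -0.87, and -0.37. Nrf1 and Esrra held less well within blocks, from -0.45 to 0.20 and from -0.67 to -0.10.

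**Figure D4:**
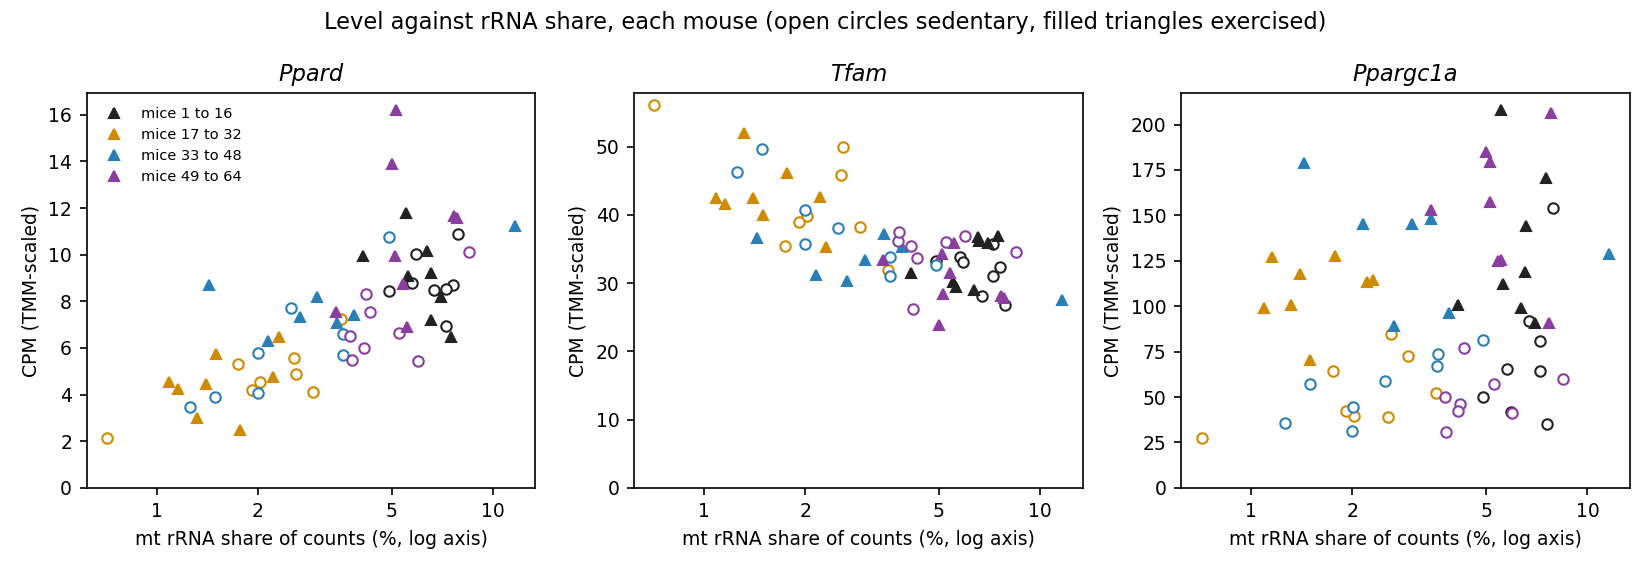
Level of Ppard, Tfam, and Ppargc1a (CPM scaled by TMM, y axis) against the share of mitochondrial rRNA in the counts (percent, log axis), with 1 point per mouse, colored by block of 16 mouse numbers; open circles are sedentary and filled triangles exercised mice. Ppard rises and Tfam declines along the axis, whereas for Ppargc1a exercised mice lie above most sedentary mice at any share.

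With the rRNA share removed as well, 15 of the 45 pairs had an adjusted p under 0.1. The pairs with the largest r were then Esrrg with Ppara (0.61, and 0.59 before the removal), Tfam with Ppard (-0.58), Ppargc1a with Esrrg (0.53, and 0.50 before), and Esrrb with Ppara (0.50). The 3 genes that rose with exercise were thus also correlated with each other among mice treated alike: Ppargc1a and Ppara had r = 0.30 (rho = 0.32, permutation p = 0.017, adjusted p = 0.035) before and 0.42 (adjusted p = 0.0037) after the removal. For Ppargc1a and Esrrg rho was 0.49 (permutation p = 1e-05, adjusted p = 6.4e-05, r = 0.49 without the 2 farthest mice and 0.56 with the blocks removed). For Esrrg and Ppara rho was 0.56 (permutation p = 2e-05, adjusted p = 1.0e-04, r = 0.59 without the 2 farthest mice and 0.58 with the blocks removed). Ppargc1a itself was only weakly related to the rRNA share (r = 0.31, rho = 0.26, permutation p = 0.015, adjusted p = 0.018), with r from -0.03 to 0.59 within blocks, and its averaged exercise effect stayed between 1.20 and 1.27 under every alternative.

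**Figure D5:**
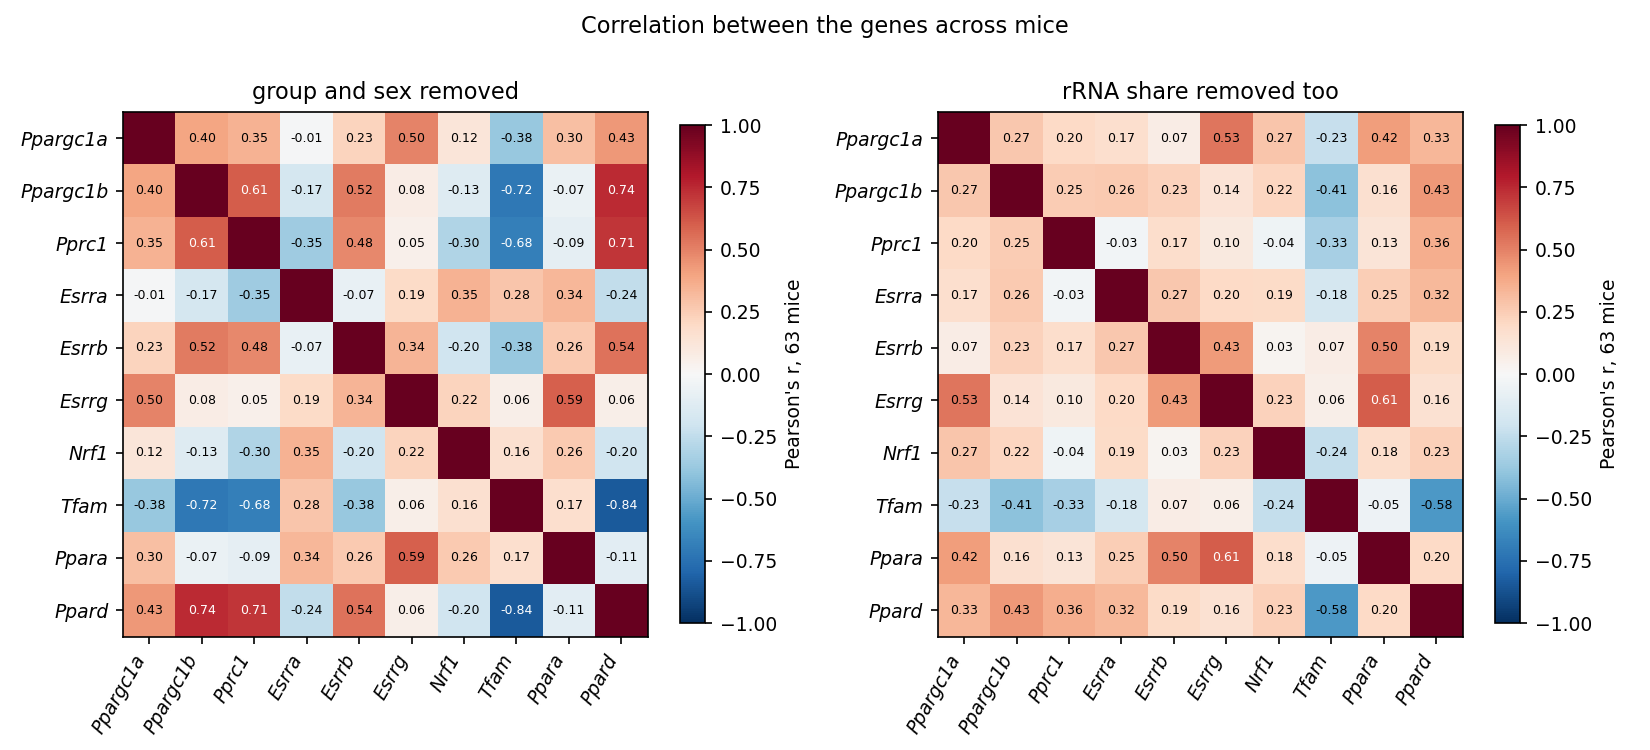
Pearson's r between the 10 genes over 63 mice, on log2 CPM with group and sex removed (left) and with the log2 share of mitochondrial rRNA removed too (right); color and printed value give r. The block of positive values among Ppargc1b, Pprc1, Esrrb, and Ppard (0.48 to 0.74) is weaker on the right (0.17 to 0.43), whereas Ppargc1a, Esrrg, and Ppara keep 0.42 to 0.61.

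The fiber markers gave a second axis. Here too only the 10 genes were tested, so the count has no share over all genes beside it. With the summed level of the 9 slow and oxidative markers 8 of the 10 genes were correlated, 7 positively, most for Esrrb (r = 0.69, rho = 0.71, permutation p = 1e-05, adjusted p = 3.3e-05) and Esrrg (r = 0.52, rho = 0.52, permutation p = 2e-05, adjusted p = 5.7e-05). Within the 4 blocks these were 0.46 to 0.79 for Esrrb and 0.51 to 0.74 for Esrrg, and without the 2 farthest mice 0.65 and 0.51. Ppargc1a (r = 0.35, rho = 0.37, permutation p = 0.0045, adjusted p = 0.0064) and Ppara (r = 0.44, rho = 0.45, permutation p = 0.00040, adjusted p = 0.00073) were related to it as well, with r from 0.25 to 0.39 and from 0.35 to 0.66 within blocks. Esrra (r = 0.07) and Nrf1 (r = 0.05) were not.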

How the data were processed

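Gastrocnemius RNA of 64 mice was sequenced from stranded poly-A libraries. Reads had been aligned by the authors to mm10 (STAR) and assigned to genes (featureCounts). What they deposited are unnormalized read counts per gene. Tool versions, annotation, and strand setting are not given in the sources used here. Identifiers were matched to GENCODE M21 (55141 of 55401), and groups, sexes, and mouse numbers came from the labels. Nothing in the labels ties mice of different groups to each other.

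Genes were kept by filterByExpr (minimum count 10), libraries were scaled by TMM, and a robust quasi-likelihood model of group plus sex was fitted over 63 libraries with edgeR 4.0.16 in R 4.3.3, in place of the DESeq2 of the study, which was an alternative (version 1.42.0). Each comparison was adjusted by Benjamini-Hochberg over 15241 genes, with calls at an adjusted p below 0.1. Standard errors were worked out from each log2 difference and its F value, and intervals are 95%. A model with a term for sex and exercise gave the effects within each sex. Correlations used log2 CPM (prior count 2) with group and sex removed and two-sided permutation tests with 1e+05 shuffles. The model was tested on simulated data.

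The 10 members, the gene lists, and the tests were chosen with earlier results of these data known. The text names the 10 members, up to 4 called genes per list and comparison with the smallest p, and the 5 genes whose level correlated best with Ppargc1a. Some genes that this rule names are not reported here. Alternatives were RLE size factors, no filter beyond 1 count, at least 10 counts in every library, all 64 libraries, no library under 5 M counts, no sex term, the block of 16 mouse numbers, the log2 share of mitochondrial rRNA, DESeq2, and an adjusted p under 0.05. The removal of the rRNA share from correlations and of single libraries was added after seeing the data. Upstream sequences are those of RefSeq.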

Additional observations from a re-analysis of the deposited data

Results flagged for a closer look

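Of 80 combinations of gene and group, 6 held a mouse whose level lay far from the others of its group by Dixon's ratio, which chance gives in about 1 of 20. In sedentary fl/fl mice at ZT15, mouse 8 had 154 CPM of Ppargc1a, whereas the others had 42.2 to 91.8. In sedentary HIF1α KO mice at ZT15, mouse 29 had 0.711 CPM of Esrrb from 14 counts, with 2.19 to 2.51 in the others, and mouse 25 had 27.7 CPM of Esrrg, with 14.2 to 20.2 in the others. Mouse 34 among exercised HIF1α KO mice at ZT3 had 18.7 CPM of Esrrg against 25.02 to 28.2. Mouse 22 among sedentary fl/fl mice at ZT3 had 56.2 CPM of Tfam against 30.99 to 40.7. Mouse 36 among exercised fl/fl mice at ZT3 had 34.5 CPM of Ppara against 14.05 to 22.4. Without these mice, one at a time, the averaged exercise effects were 1.27 for Ppargc1a, 0.09 for Esrrb, 0.30 for Esrrg without either mouse, -0.04 for Tfam, and 0.34 for Ppara, and the calls of Ppargc1a, Esrrg, and Ppara held.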

How the results depend on the processing

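Over 46 values of single genes and 491 alternatives of them, 464 kept their direction and their side of the threshold, 10 lost the call, 7 gained it, and 10 changed sign. The averaged exercise effect of Ppargc1a was 1.20 to 1.27 and that of Ppara 0.34 to 0.38, each called under every alternative run. Values that changed sign were near zero: Nrf1 with exercise without the libraries under 5 M counts (0.0010), Pprc1 by genotype with the block (0.018) or the rRNA share (0.016), Ppara by genotype without mouse 36 (0.012), Esrrg with exercise in fl/fl mice at ZT15 with the block (-0.022), and the interaction of genotype and exercise of Ppargc1a with no filter (-0.0011), all 64 libraries (-0.0041), the block (-0.034), the rRNA share (-0.12), and without mouse 8 (-0.11). Counts among the 10 genes moved in several comparisons. With the rRNA share, 2 were called with exercise in fl/fl mice at ZT3, and DESeq2 called 1, Ppargc1a, in HIF1α KO mice at ZT15. By genotype on average, 0 were called with no filter, with the block, and at an adjusted p under 0.05. Between ZT15 and ZT3 on average, 1 was called without the libraries under 5 M counts, 4 with the block, and 1 with the rRNA share. In sedentary fl/fl mice 2 were called by time with the block. Where no count over all genes is printed for an alternative, the count among the 10 genes has no share beside it. Such a count is not a result about these genes. In exercised fl/fl mice 0 were called by time with no filter, the block, the rRNA share, or an adjusted p under 0.05. By sex, 1 was called with no filter. With the rRNA share in the model Ppard was also called for exercise on average (0.26, adjusted p = 0.031). Over all genes, 669 were called for exercise on average with the block, and 778 with no filter and 695 at an adjusted p under 0.05 by genotype. With the rRNA share removed, 15 pairs of genes were correlated. The causes were not tested. The shallowest library gives 2.36 counts per CPM, which limits Esrrb most. No paired analysis was possible because mouse numbers are not shared between groups.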
